A study of Homo sapiens with 24 samples.

Results

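Cadherin genes were followed through RNA-seq libraries of clear cell renal cell carcinoma (ccRCC) cells depleted of the renal lineage transcription factor PAX8. The 8 genes, CDH6, CDH1, CDH2, CDH3, CDH4, CDH11, CDH13 and CDH16, were taken by name from the 26475 genes of the deposited tables. They cover classical cadherins, the kidney cadherins CDH6 and CDH16, and CDH13. They were picked on measured values of these libraries, knowing that CDH6 was lower in shPAX8 libraries of both cell lines and that CDH13 differed between the lines, so levels against the control and between lines are given as descriptions with no test for these genes. The measure tested here, which the choice did not use, is the difference between the constructs shPAX8-1 and shPAX8-2.

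The cells were 786-M1A and OS-LM1, metastatic derivatives of the VHL-mutant ccRCC lines 786-O and OS-RC2 that carry a luciferase reporter. Each line was grown in RPMI with serum and sampled before confluence with 1 of 3 constructs: shPAX8-1 or shPAX8-2, RNAi hairpins against PAX8, or sgNTC18, labelled as a non-targeting guide RNA. There were 4 libraries for each line and construct and 24 in all. The control therefore differs from the hairpins in kind as well as in target, and for every value against sgNTC18 given here the hairpin, the handling of each set of libraries and the loss of PAX8 cannot be told apart. Expected read counts summed to between 11634419 and 52059375 per library. Nothing in the labels says that replicates were separate cultures, so p-values measure the spread between libraries, which may be technical. In these bulk libraries, fewer cells of a type and less RNA per cell cannot be told apart.

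Cadherins are calcium-dependent adhesion proteins that span the membrane and bind cadherins on neighbouring cells. Their cytoplasmic tails hold beta-catenin (CTNNB1) and p120-catenin (CTNND1), and alpha-catenin (CTNNA1) couples the complex to actin. Renal tubule cells are unusual among epithelia in that many of them use N-cadherin (CDH2) and kidney cadherin (CDH6) beside or in place of E-cadherin (CDH1), and CDH6 is a known surface marker of renal cancer.

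The hairpin guides are shown because every comparison rests on them. Both are 22 bases long and come from the oligonucleotide table of the study, with the seed, bases 2 to 8 from the 5′ end, in capitals. Below each stands the PAX8 transcript sequence it pairs with, read from hg38.

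shPAX8-1 guide: tGTGAGTCaatgcttagtcggc
shPAX8-1 site: gccgactaagcattgactcaca
shPAX8-2 guide: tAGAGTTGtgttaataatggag
shPAX8-2 site: ctccattattaacacaactcta

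The site of shPAX8-1 lies at chr2:113241690-113241711 on the minus strand of hg38, in the coding sequence of 8 of the 10 coding PAX8 transcripts of the annotation and in an untranslated region of 1. The site of shPAX8-2 lies at chr2:113218122-113218143, in the 3′ untranslated region of 7 of the 10. The letters that pair with the shPAX8-1 seed, GACTCAC, did not occur in the longest coding transcript of any of the 8 cadherin genes. Those that pair with the shPAX8-2 seed, CAACTCT, occurred 1 time each in the transcripts of CDH6, CDH1 and CDH11. The same letters were found in 43.2%, 25.7% and 36.8% of transcripts of like length (0.8 to 1.25 times), so a match is common. Only the transcript strand was searched, and a match of this kind is a description, not a site.

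PAX8 was lowered by both hairpins, and unequally in 786-M1A cells. Its level in TPM, which scales reads by transcript length and library size, was 142, 178, 163 and 145 in the 4 sgNTC18 libraries of 786-M1A cells, 9.76, 9.62, 6.50 and 5.99 with shPAX8-1 and 17.9, 18.8, 18.0 and 16.5 with shPAX8-2. In OS-LM1 cells it was 114, 122, 106 and 112 with sgNTC18, 35.5, 38.1, 26.8 and 36.4 with shPAX8-1 and 34.5, 27.0, 40.6 and 31.8 with shPAX8-2. The shPAX8 libraries lay below the sgNTC18 libraries in both lines without overlap. In 786-M1A cells shPAX8-1 left 2.26-fold less PAX8 than shPAX8-2 (log2 difference −1.18 ± 0.15, SE, 95% interval −1.51 to −0.84; adjusted p = 4e-05 by edgeR's quasi-likelihood test with Benjamini-Hochberg adjustment over all genes). In OS-LM1 cells the difference was −0.05 ± 0.12 (interval −0.33 to 0.23; adjusted p = 0.80).

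CDH6, at chr5:31193686-31329146 on the plus strand, encodes the kidney cadherin of the proximal tubule. In 786-M1A cells its TPM was 59.0, 45.2, 50.5 and 50.6 with sgNTC18, 5.54, 6.89, 6.56 and 6.90 with shPAX8-1 and 5.97, 4.85, 6.30 and 7.16 with shPAX8-2. In OS-LM1 cells it was 59.0, 64.7, 63.7 and 69.8 with sgNTC18, 9.32, 10.5, 9.72 and 8.21 with shPAX8-1 and 9.51, 10.4, 7.78 and 8.45 with shPAX8-2. All 16 shPAX8 libraries lay below all 8 sgNTC18 libraries. The fitted log2 fold changes against sgNTC18 were −2.85 ± 0.13 (shPAX8-1) and −2.94 ± 0.13 (shPAX8-2) in 786-M1A cells, and −2.82 ± 0.10 and −2.80 ± 0.10 in OS-LM1 cells (SE, 4 libraries per group). These are reductions of 7.20-, 7.65-, 7.07- and 6.95-fold, whereas PAX8 itself was reduced 17.9-, 7.93-, 3.39- and 3.27-fold in the same 4 comparisons. The values of both hairpins within each line share their sgNTC18 libraries. Among genes with an average log2 CPM (counts scaled to library size) of at least 3, the fold change of CDH6 over both hairpins ranked 51st from the lowest of 9751 (786-M1A) and 46th of 9622 (OS-LM1), and that of PAX8 32nd and 267th.

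**Figure D1:**
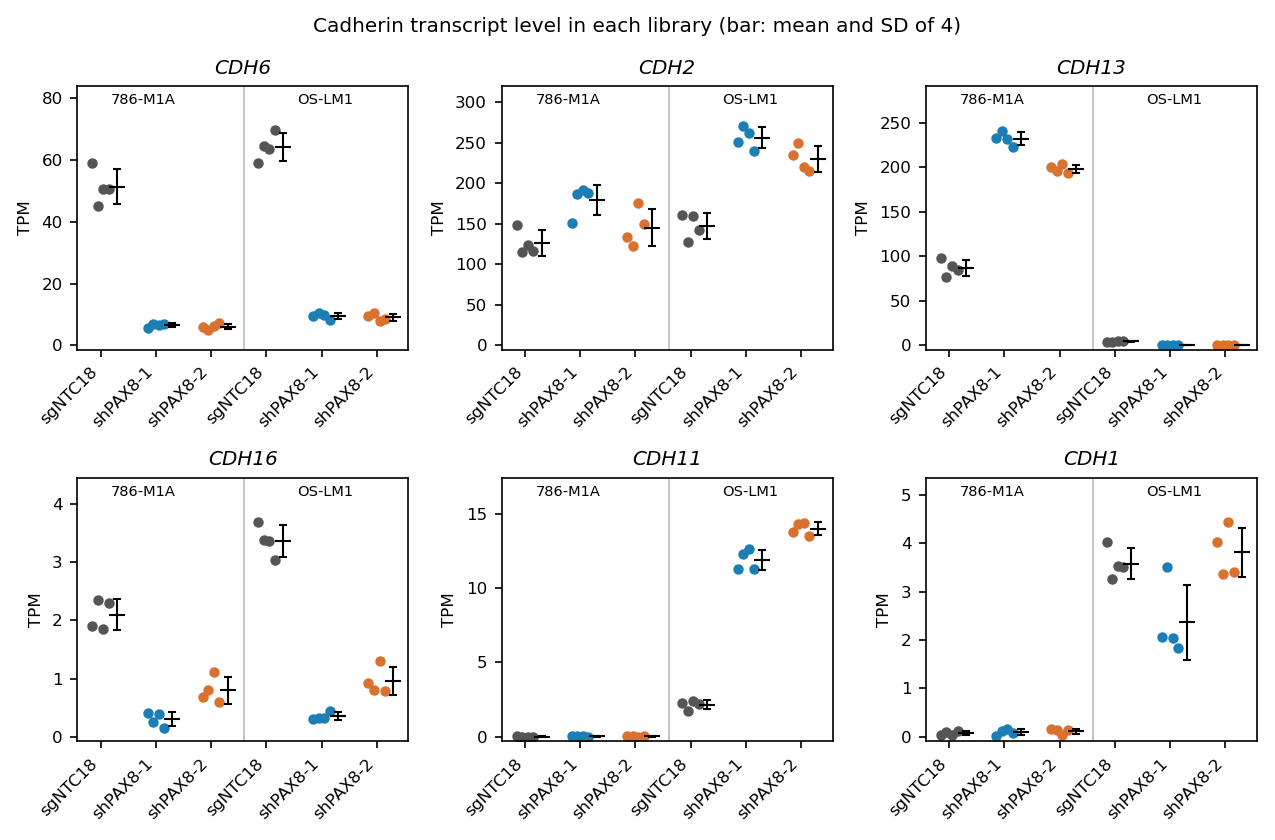
TPM of 6 cadherin genes in each of the 24 libraries, by line and construct; each point is 1 library and the bar beside it the mean and SD of 4. CDH6 and CDH16 were lower in all shPAX8 libraries than in the sgNTC18 libraries of the same line, CDH13 was higher in 786-M1A and near 0 in OS-LM1 shPAX8 libraries, and CDH11 was read above 0.08 TPM in OS-LM1 libraries only.

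CDH6 did not differ detectably between the hairpins. The difference of shPAX8-1 from shPAX8-2 was 0.09 ± 0.12 on the log2 scale in 786-M1A cells (interval −0.19 to 0.37, edgeR adjusted p = 0.59), and in the OS-LM1 line it was −0.02 ± 0.09 (interval −0.24 to 0.19, edgeR adjusted p = 0.88). The interval in 786-M1A cells leaves room for a difference of up to 0.37 on that scale. In that line the fold changes between hairpins went with the GC content of the genes (Spearman −0.557 across 13048 genes, a description, since genes are not independent replicates), and CDH6, at 40.0% GC, changed sign and passed the threshold once this trend was removed (−0.30, edgeR adjusted p = 0.0217).

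CDH16, at chr16:66908122-66918885 on the minus strand, encodes Ksp-cadherin, a kidney-specific cadherin with a short cytoplasmic tail that lacks the catenin-binding region. In 786-M1A cells its TPM was 1.91, 2.36, 1.85 and 2.30 with sgNTC18, 0.41, 0.25, 0.39 and 0.15 with shPAX8-1 and 0.68, 0.80, 1.12 and 0.59 with shPAX8-2. In OS-LM1 cells it was 3.70, 3.38, 3.36 and 3.04 with sgNTC18, 0.31, 0.33, 0.32 and 0.45 with shPAX8-1 and 0.92, 0.81, 1.31 and 0.78 with shPAX8-2. The 3 constructs did not overlap in either line, and in both the order was sgNTC18, shPAX8-2, shPAX8-1 from high to low. In 786-M1A cells shPAX8-1 left 2.67-fold less CDH16 than shPAX8-2 (log2 difference −1.41 ± 0.31, interval −2.11 to −0.72, edgeR adjusted p = 0.0021). In OS-LM1 cells it was 2.91-fold lower (−1.54 ± 0.24, interval −2.09 to −0.99, edgeR adjusted p = 9.8e-05). The difference was smaller in 786-M1A cells after removal of the GC trend (−0.96, edgeR adjusted p = 0.0197), with CDH16 at 60.5% GC. The values rest on 5 to 13 counts per library with shPAX8-1 and 15 to 26 with shPAX8-2 in 786-M1A cells, and on 9 to 20 and 21 to 106 in OS-LM1 cells.

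The difference between the hairpins was then compared between lines. PAX8 differed between the hairpins more in 786-M1A than in OS-LM1 cells (interaction 1.16 ± 0.20 on the log2 scale, OS-LM1 less 786-M1A, edgeR adjusted p = 0.00015). For CDH16 the same interaction was −0.09 ± 0.40 (interval −0.93 to 0.75, edgeR adjusted p = 0.90), and for CDH6 it was −0.08 ± 0.15 (interval −0.40 to 0.24, edgeR adjusted p = 0.75). The interval for CDH16 is wide and does not show that the lines acted alike.

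**Figure D2:**
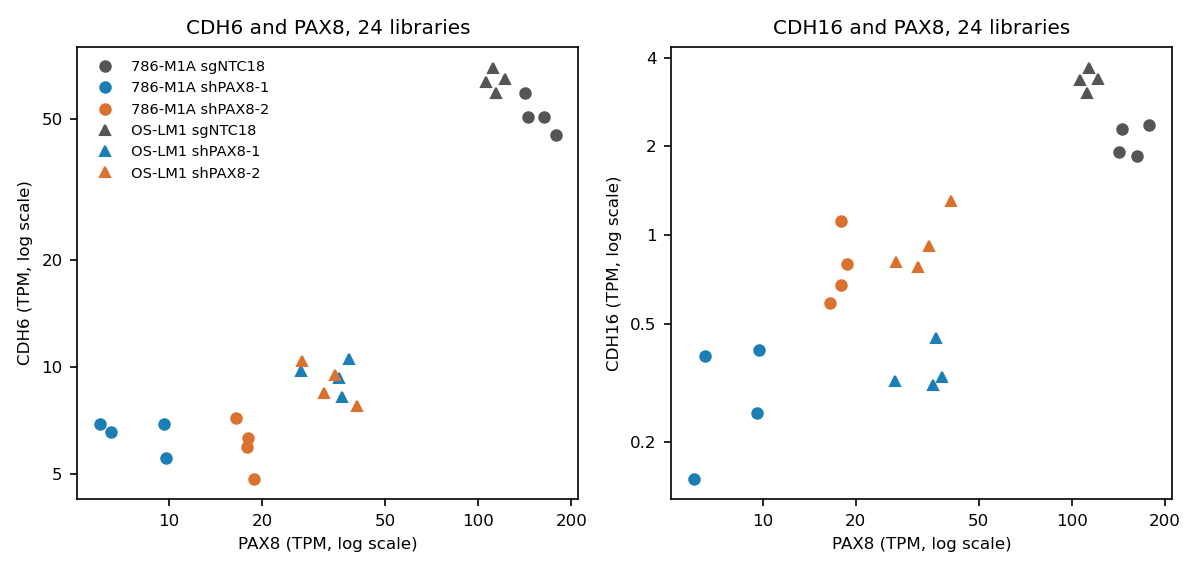
TPM of CDH6 (left) and CDH16 (right) against TPM of PAX8 in the 24 libraries, both axes on a log scale; colour marks the construct and shape the line. CDH6 lay between 4.85 and 10.5 TPM in all shPAX8 libraries although PAX8 ranged from 5.99 to 40.6 TPM there, while CDH16 was lower with shPAX8-1 than shPAX8-2 in both lines.

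CDH2, at chr18:27932879-28177130 on the minus strand, encodes N-cadherin, the classical cadherin of mesenchymal and neural cells that is also found in the proximal tubule. It had the highest mean TPM of the 8 genes in every group except the shPAX8 groups of 786-M1A cells, where CDH13 was higher. Its TPM in 786-M1A cells was 148, 115, 124 and 116 with sgNTC18, 151, 186, 192 and 188 with shPAX8-1 and 134, 122, 175 and 150 with shPAX8-2. In OS-LM1 cells it was 160, 127, 159 and 142 with sgNTC18, 251, 270, 262 and 240 with shPAX8-1 and 235, 250, 220 and 215 with shPAX8-2. The shPAX8 libraries of OS-LM1 cells lay above the sgNTC18 libraries without overlap, whereas those of shPAX8-2 in 786-M1A cells overlapped with sgNTC18. The log2 fold changes against sgNTC18 were 0.62 ± 0.12 and 0.34 ± 0.12 in 786-M1A cells and 0.70 ± 0.08 and 0.65 ± 0.08 in OS-LM1 cells (shPAX8-1 and shPAX8-2 in turn). Over both hairpins they were 0.48 and 0.67, and with the GC trend removed 0.28 and 0.43. Between the hairpins, CDH2 differed by 0.28 ± 0.12 in 786-M1A cells (interval 0.02 to 0.54, edgeR adjusted p = 0.059) and by 0.06 ± 0.08 in OS-LM1 cells (interval −0.13 to 0.24, edgeR adjusted p = 0.65). In 786-M1A cells the difference passed the threshold without shPAX8-1 replicate 1 (0.34, edgeR adjusted p = 0.0181) or without shPAX8-2 replicate 3 (0.36, edgeR adjusted p = 0.0224), and it was 0.03 with the GC trend removed.

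**Figure D3:**
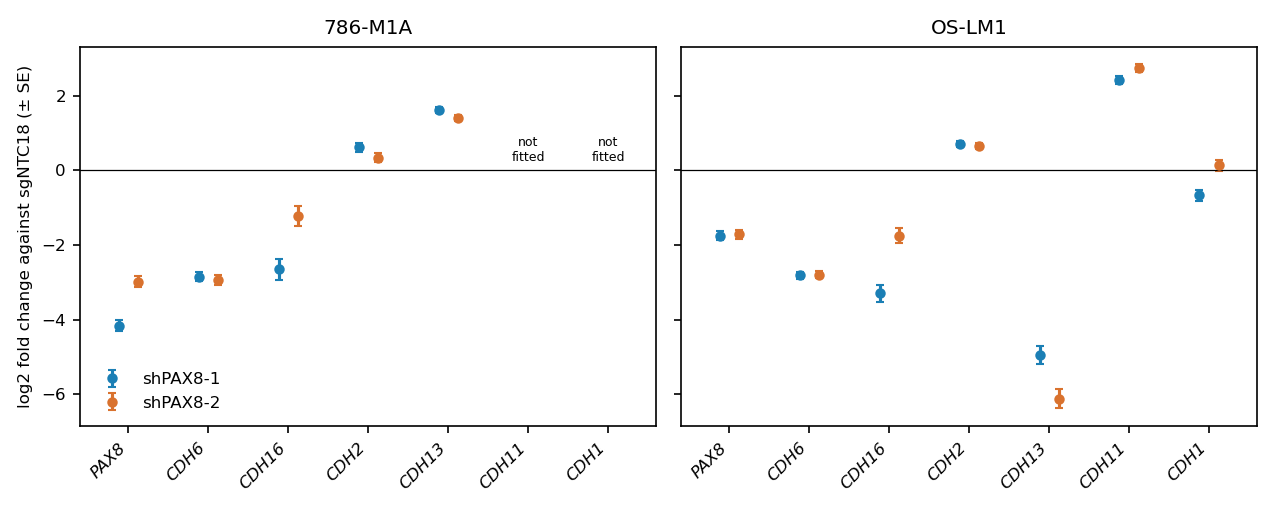
Log2 fold change of PAX8 and of each fitted cadherin gene against sgNTC18, with its SE, for each hairpin in 786-M1A (left) and OS-LM1 cells (right); CDH11 and CDH1 were too low in 786-M1A cells to be fitted. CDH6 sits between −2.94 and −2.80 in all 4 comparisons, while CDH13 lies above 0 in 786-M1A and below −4 in OS-LM1 cells, where its values rest on under 10 counts per shPAX8 library.

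CDH13, at chr16:82626969-83800640 on the plus strand, encodes T-cadherin, which is held to the membrane by a GPI anchor and has no cytoplasmic tail. In 786-M1A cells its TPM was 98.3, 76.6, 89.0 and 84.9 with sgNTC18, 233, 241, 232 and 223 with shPAX8-1 and 200, 196, 204 and 193 with shPAX8-2. In OS-LM1 cells it was 3.84, 3.98, 4.38 and 5.20 with sgNTC18, 0.17, 0.34, 0.16 and 0.10 with shPAX8-1 and 0.03, 0.14, 0.08 and 0.05 with shPAX8-2. Against sgNTC18, every shPAX8 library was thus higher in 786-M1A and lower in OS-LM1 cells. The log2 fold changes were 1.61 ± 0.08 and 1.39 ± 0.08 in 786-M1A cells (3.06- and 2.63-fold). In OS-LM1 cells they were −4.95 ± 0.23 and −6.12 ± 0.26. The counts there were 8, 9, 5 and 6 with shPAX8-1 and 1, 2, 8 and 4 with shPAX8-2, against 302, 309, 347 and 373 with sgNTC18. So few counts make the fitted values depend on the prior count, and their SE may be too small. In the sgNTC18 libraries alone CDH13 was 18.3-fold lower in OS-LM1 than in 786-M1A cells (mean CPM 9.62 ± 1.18 against 176 ± 11.9; SD, n = 4). The TPM of CDH13 is less certain than that of the other members. Over its 6 transcripts, the gene length that scaled its reads ranged from 1492 to 3981 bases between libraries.

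CDH13 was higher with shPAX8-1 than shPAX8-2 in 786-M1A cells, by 0.22 ± 0.08 (interval 0.04 to 0.39, edgeR adjusted p = 0.030). The fitted difference was 1.16 ± 0.39 in OS-LM1 cells (interval 0.28 to 2.05, edgeR adjusted p = 0.037). There CDH13 passed the filter on low counts only through its sgNTC18 libraries, and it was not tested in the fit of the 8 shPAX8 libraries. The hairpins overlapped in TPM though not in CPM. This call thus rests on almost no reads, and its SE and interval may be too narrow. In 786-M1A cells the call was lost without shPAX8-1 replicate 3 or 4 or any 1 of the 4 shPAX8-2 libraries (0.20 to 0.23, edgeR adjusted p between 0.0512 and 0.0796), and with the GC trend removed the value was −0.04. The OS-LM1 call was lost without shPAX8-1 replicate 1 (1.05, edgeR adjusted p = 0.107) or 2 (0.95, edgeR adjusted p = 0.14) or shPAX8-2 replicate 1 (1.06, edgeR adjusted p = 0.075) or 4 (1.16, edgeR adjusted p = 0.0695), and with the replicate number as a block (1.17, edgeR adjusted p = 0.0546).

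CDH11 and CDH1 were read at measurable levels in OS-LM1 cells only. CDH11, at chr16:64943753-65123744 on the minus strand, encodes OB-cadherin, a type II cadherin of mesenchymal cells and osteoblasts. Its TPM in OS-LM1 cells was 2.26, 1.72, 2.43 and 2.21 with sgNTC18, 11.3, 12.3, 12.6 and 11.3 with shPAX8-1 and 13.8, 14.3, 14.4 and 13.5 with shPAX8-2. These groups did not overlap. The log2 fold changes against sgNTC18 were 2.42 ± 0.10 and 2.74 ± 0.10 (5.34- and 6.70-fold). CDH11 was 1.25-fold lower with shPAX8-1 than shPAX8-2 (−0.33 ± 0.10, interval −0.54 to −0.11, edgeR adjusted p = 0.014), a call lost without shPAX8-1 replicate 2 (−0.28, edgeR adjusted p = 0.0658) or shPAX8-2 replicate 3 (−0.28, edgeR adjusted p = 0.0562) or 4 (−0.30, edgeR adjusted p = 0.0564). In 786-M1A cells CDH11 had 3 counts over the 4 sgNTC18 libraries and 0 to 5 in each shPAX8 library.

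CDH1, at chr16:68737292-68835537 on the plus strand, encodes E-cadherin, the classical epithelial cadherin. In OS-LM1 cells its TPM was 4.03, 3.27, 3.53 and 3.50 with sgNTC18, 2.07, 3.52, 2.04 and 1.84 with shPAX8-1 and 4.02, 3.37, 4.44 and 3.41 with shPAX8-2. The shPAX8-2 libraries overlapped with sgNTC18, and 3 of the 4 shPAX8-1 libraries lay below both. CDH1 was 1.74-fold lower with shPAX8-1 than shPAX8-2 (−0.80 ± 0.15, interval −1.14 to −0.46, edgeR adjusted p = 0.0005), while against sgNTC18 the fold change was −0.67 ± 0.15 with shPAX8-1 and 0.13 ± 0.14 with shPAX8-2. In 786-M1A cells CDH1 had 1 to 7 counts per library in all 3 groups.

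CDH3 (P-cadherin), at chr16:68645310-68733771 beside CDH1, had at most 9 counts in any library. CDH4 (R-cadherin), at chr20:61252261-61940617, had at most 9 as well, and both are on the plus strand. Neither passed the filter on low counts in either line, so a difference in these genes was not detectable at this depth. CDH1, CDH3, CDH11, CDH13 and CDH16 all lie on chromosome 16. Of these, CDH16 was lower in shPAX8 than in sgNTC18 libraries of both lines, CDH13 was lower in OS-LM1 and higher in 786-M1A cells, and CDH11 was higher in OS-LM1 cells.

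**Figure D4:**
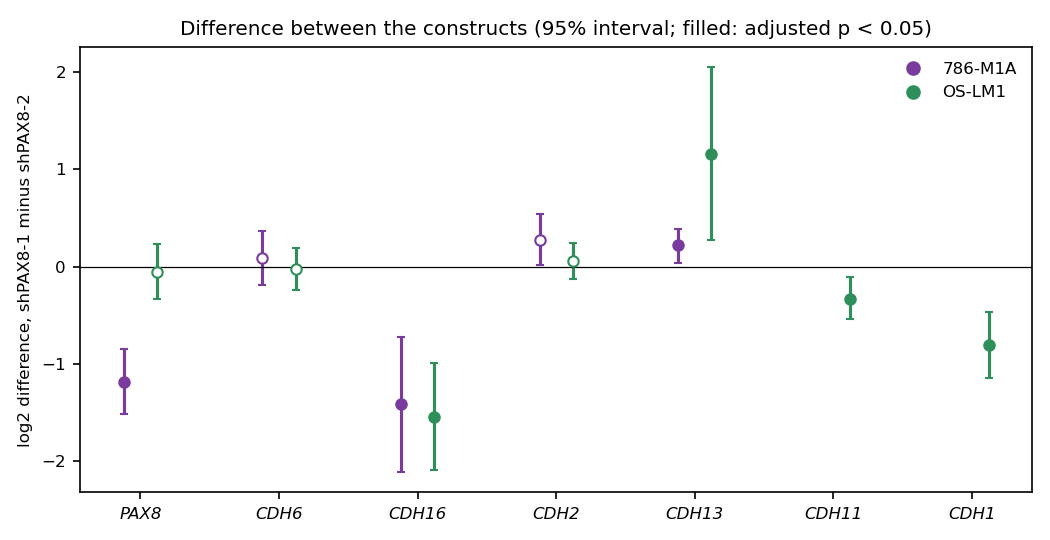
Log2 difference of shPAX8-1 from shPAX8-2 for PAX8 and the cadherin genes fitted in each line (4 in 786-M1A, 6 in OS-LM1), with its 95% interval; filled points passed edgeR's adjusted p of 0.05. CDH16 lies below 0 in both lines (−1.41 and −1.54), whereas PAX8 does so in 786-M1A cells only (−1.18 against −0.05).

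Of the 4 members tested between the hairpins in 786-M1A cells, 2 passed, CDH16 lower and CDH13 higher with shPAX8-1. Over all 14452 genes tested there, 47.1% passed, 24.2% higher and 22.9% lower. Of the 6 tested in OS-LM1 cells, 4 passed, CDH16, CDH1 and CDH11 lower and CDH13 higher, against 29.1% of 15049 genes, 12.4% higher and 16.7% lower. In the fit of the 8 shPAX8 libraries of that line, where CDH13 was not tested, 3 of 5 passed, against 3586 of 14075 genes. The median log2 difference was 0.15 over the members and −0.02 over all genes in 786-M1A cells, and −0.17 and −0.03 in OS-LM1 cells. Between lines, edgeR called 0 of 6 members for a difference in the construct effect, against 27.2% of 15665 genes, 12.7% higher and 14.5% lower. Of the 6, CDH1 and CDH11 passed the filter only through OS-LM1 libraries and CDH13 had 1 to 9 counts in OS-LM1 shPAX8 libraries, so nothing is read from this count. DESeq2 also called 0, and 1 member had an unadjusted edgeR p under 0.05, CDH13 (0.95 ± 0.34 on the log2 scale, OS-LM1 less 786-M1A, interval 0.24 to 1.66, edgeR adjusted p = 0.096). For CDH1 and CDH11, almost unread in 786-M1A cells, that difference was −0.40 ± 0.55 and −0.69 ± 0.70 (edgeR adjusted p = 0.63 and 0.50). With the exact two-sided permutation test of 4 against 4 libraries, CDH16 and CDH13 in both lines and CDH11 and CDH1 in OS-LM1 cells each reached 0.0286. This is the smallest p the design allows, and it was 0.0763 after adjustment over the 16 tests (8 members, 2 lines). It is reached when the log2 CPM of the hairpins does not overlap. The share of all genes that reach it was not computed, and CDH13 in OS-LM1 cells had 1 to 9 counts. Nothing is therefore read from the number of members that reached it. For CDH6 the permutation p was 0.543 in 786-M1A and 0.886 in OS-LM1 cells.

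Set side by side per transcript length, the members changed rank with the construct. The summed TPM of the 8 genes was 266 ± 29.4 with sgNTC18, 419 ± 20.2 with shPAX8-1 and 351 ± 26.2 with shPAX8-2 in 786-M1A cells, and 225 ± 14.6, 280 ± 14.9 and 258 ± 16.9 in OS-LM1 cells (SD, n = 4). CDH6 made up 19.3% ± 0.469 of this sum with sgNTC18 in 786-M1A cells, against 28.7% ± 3.07 in OS-LM1 cells. Its share was 1.54% ± 0.0984 and 1.73% ± 0.231 with the 2 hairpins in 786-M1A cells and 3.36% ± 0.168 and 3.50% ± 0.256 in OS-LM1 cells. CDH2 was 2.44 ± 0.112 times as high as CDH6 with sgNTC18 in 786-M1A cells and 2.30 ± 0.361 times in OS-LM1 cells. With the hairpins this ratio lay between 21.0 and 29.3 in every library. CDH2 accounted for 91.3% and 89.1% of the sum in OS-LM1 shPAX8 libraries, while in 786-M1A shPAX8 libraries CDH13 took 55.6% and 56.7% and CDH2 42.8% and 41.3%. In OS-LM1 sgNTC18 libraries the order below CDH2 and CDH6 was CDH13, CDH1, CDH16 and CDH11, of which CDH13 and CDH1 overlapped, as did CDH1 and CDH16.

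**Figure D5:**
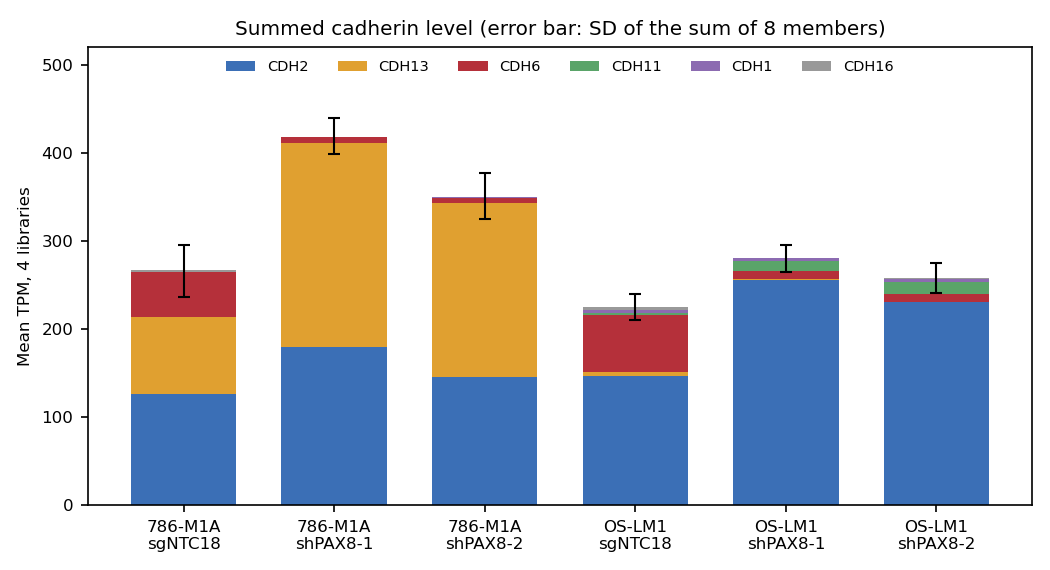
Mean TPM of the cadherin genes stacked by line and construct, with the SD of the summed TPM of the 8 genes over 4 libraries; CDH3 and CDH4 are too low to draw. CDH6 shrank from 19.3% to under 2% of the sum in 786-M1A cells and from 28.7% to 3.50% or less in OS-LM1 cells, where CDH2 made up most of what remained.

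Among the genes closest to CDH6 in pattern over the 24 libraries, by Pearson correlation of log2 CPM among 9360 genes that are no members, were PRELID1 (r = 0.979), HSD17B10 (0.978), SHMT1 (0.975) and DUT (0.974). PRELID1 carries lipid between mitochondrial membranes, HSD17B10 is a mitochondrial dehydrogenase, SHMT1 acts in folate-dependent serine metabolism and DUT degrades dUTP. Their TPM, like that of CDH6, fell into an sgNTC18 and an shPAX8 set, SHMT1 for example at 45.8 and 54.5 with sgNTC18 in the 2 lines and between 9.14 and 16.7 in the shPAX8 groups. A gene that separates these sets has a high r whatever else it does. For CDH13 the closest were FZD7 (0.989), HOXB9 (0.988), SLCO4A1 (0.988), SLC1A4 (0.988) and LDOC1 (0.987), a Wnt receptor, a homeobox factor, 2 membrane transporters and a nuclear protein. Of these, HOXB9 went from 33.3 TPM with sgNTC18 to 89.6 and 58.5 with the hairpins in 786-M1A cells and from 11.4 to 2.32 and 2.26 in OS-LM1 cells. The other 4 were lower with the hairpins in OS-LM1 cells but did not all rise in 786-M1A cells, SLC1A4 for example at 45.3, 47.7 and 41.9 TPM and SLCO4A1 at 220, 200 and 283 with sgNTC18, shPAX8-1 and shPAX8-2.

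Catenins and their actin linkers changed in both directions. Of 15 listed genes, 12 were tested in each line. Against sgNTC18, 5 were higher, 4 lower and 3 not called in 786-M1A cells, where 70.4% of all genes passed (35.7% higher, 34.7% lower), and 7 were higher, 3 lower and 2 not called in OS-LM1 cells, where 73.4% passed (36.4% higher, 37.1% lower). CTNNA1 fell from 356 ± 26.4 TPM to 113 ± 6.02 and 136 ± 3.64 in 786-M1A cells (log2 fold change over both hairpins −1.37 ± 0.06, edgeR adjusted p = 1.2e-10). Its values in OS-LM1 cells were 227 ± 24.5, 203 ± 37.6 and 213 ± 16.4 TPM (−0.13 ± 0.08, edgeR adjusted p = 0.14). The difference between lines passed (1.27 ± 0.10, edgeR adjusted p = 7.2e-11). CTNND1 fell by 1.00 on the log2 scale in 786-M1A cells (SE 0.11, edgeR adjusted p = 1.6e-06) and rose by 0.38 in OS-LM1 cells (SE 0.07, edgeR adjusted p = 4.6e-05), the latter not called with the GC trend removed (0.06). CTNNB1 rose by 0.26 ± 0.08 and 0.32 ± 0.09 (edgeR adjusted p = 0.0085 and 0.0032), neither of which was called with the GC trend removed (0.09 in both lines). Between the hairpins in 786-M1A cells, CTNNAL1, an alpha-catenin relative, was higher with shPAX8-1 (0.71 ± 0.19, edgeR adjusted p = 0.0084), but without both of shPAX8-1 replicates 3 and 4 it was 0.26 (edgeR adjusted p = 0.201). In OS-LM1 cells, 7 of the 12 were lower with shPAX8-1 than shPAX8-2 and the other 5 were not called, beside 16.7% lower over all genes. CTNND1 was among them (−0.48 ± 0.08, edgeR adjusted p = 0.00011). NECTIN4, an adhesion receptor, differed by −0.82 in 786-M1A cells (edgeR adjusted p = 0.067) and by −0.43 in OS-LM1 cells (edgeR adjusted p = 0.025), a call lost on leaving out any of 5 single libraries. The 786-M1A difference passed without shPAX8-1 replicate 1 (−1.03, edgeR adjusted p = 0.0362) or shPAX8-2 replicate 3 (−1.03, edgeR adjusted p = 0.0252), in the fit of all 24 libraries (−0.83), without both of shPAX8-1 replicates 1 and 2 (−1.36) and with the replicate block (−0.82).

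The desmosome, a junction built on its own cadherins, was read only in part, with 4 of 12 genes tested in 786-M1A and 6 in OS-LM1 cells. Against sgNTC18, 2 were higher and 2 lower in the former and 4 higher and 2 lower in the latter. Over all genes, 70.4% and 73.4% were called. The desmosomal cadherin DSG2, named after its values were seen, had at least 2892 counts in every library. It was higher in both lines (1.13 and 0.33, edgeR adjusted p = 2.5e-06 and 0.0018). JUP (plakoglobin), a catenin shared by both junctions, fell in 786-M1A cells from 2.46 ± 0.549 TPM to 0.262 ± 0.0737 and 0.980 ± 0.457 (−2.09 ± 0.27, edgeR adjusted p = 5.8e-06) and rose in OS-LM1 cells from 31.4 ± 4.87 to 58.8 ± 9.14 and 89.2 ± 20.7 (1.21 ± 0.13, edgeR adjusted p = 1.3e-07). The difference between lines was 3.31 ± 0.29 (edgeR adjusted p = 2.9e-10). JUP was lower with shPAX8-1 than shPAX8-2 in both lines (−1.86 ± 0.38 and −0.68 ± 0.14, edgeR adjusted p = 0.0015 in each). In 786-M1A cells this rests on 7 to 14 counts per library with shPAX8-1 and 7 to 39 with shPAX8-2. DSC2, a desmosomal cadherin at no more than 0.8 TPM in any library, rose by 1.12 in 786-M1A and fell by 0.94 in OS-LM1 cells (edgeR adjusted p = 0.0017 and 0.00021). DSP (desmoplakin), named after its values were seen, had 548, 481, 618 and 551 counts in the OS-LM1 sgNTC18 libraries and 0 to 3 in each of the 8 OS-LM1 shPAX8 libraries, and in 786-M1A cells 0 to 4 counts in every library. As for CDH13, the OS-LM1 shPAX8 libraries of both hairpins held almost no DSP reads.

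Other classical and type II cadherins were mostly low. Of 13 further classical and type II cadherins, 4 were tested in 786-M1A and 2 in OS-LM1 cells. CDH24 was lower with shPAX8-1 than shPAX8-2 in 786-M1A cells (6.17 ± 1.84 against 11.5 ± 1.99 TPM; −0.92 ± 0.21, edgeR adjusted p = 0.0027) and at 8.05 ± 1.38 and 8.62 ± 3.06 TPM in OS-LM1 cells (−0.20 ± 0.20, edgeR adjusted p = 0.51). Over the alternatives the 786-M1A difference ranged from −1.33 to −0.39. CDH12 stayed under 0.3 TPM on average in all groups. Of 31 other superfamily members, such as protocadherins and the FAT and CELSR families, 17 were tested in 786-M1A cells, of which 4 rose, 4 fell and 9 were not called against sgNTC18, and 18 in OS-LM1 cells, of which 4 rose, 9 fell and 5 were not called. Over all genes, 70.4% and 73.4% were called in these comparisons. Some members had many reads, such as CLSTN1 and FAT1, named after their values were seen, with at least 4196 and 1712 counts in every library. Those that rose include CDHR5 in 786-M1A cells (1 to 3 counts per sgNTC18 library) and PCDH7 and CDH17 in OS-LM1 cells. Each passed the filter on low counts only through shPAX8 libraries, so nothing is read from how many genes rose. Between the hairpins, 1 of the 17 was higher and 5 were lower with shPAX8-1 in 786-M1A cells, beside 24.2% higher and 22.9% lower over all genes. In OS-LM1 cells 3 of the 18 were higher and 8 lower, beside 12.4% and 16.7%. PCDH7, a protocadherin, was at 0.220 ± 0.128 TPM with shPAX8-1 and 0.030 ± 0.0141 with shPAX8-2 in OS-LM1 cells (2.80 ± 0.52, edgeR adjusted p = 0.00044), resting on 58 and 10 counts over 4 libraries. In OS-LM1 cells shPAX8-1 left less CDH17 than shPAX8-2 (−1.35 ± 0.37, edgeR adjusted p = 0.0094), at 0.170 ± 0.0627 and 0.427 ± 0.067 TPM, resting on 34 and 101 counts. With sgNTC18 in that line PCDH7 had 0 to 1 counts per library and CDH17 had 4 to 9. Both genes were named for this difference and passed the filter on low counts only through the hairpin where they were high. Nothing is read from these 2 calls, which are among those counted above.

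Genes known to act on cadherin transcription moved in both directions. Of 13 listed repressors and activators of cadherin genes, 7 were tested in 786-M1A cells, of which 4 rose against sgNTC18 and the other 3 were not called, and 8 in OS-LM1 cells, of which 4 rose and 4 fell. Over all genes, 35.7% rose and 34.7% fell in 786-M1A cells, against 36.4% and 37.1% in OS-LM1 cells. The 4 that rose were SNAI1, SNAI2, ZEB1 and ZEB2 in both lines, zinc-finger repressors of epithelial genes, of which SNAI1 and ZEB2 are named after their values were seen (log2 fold changes 1.58 and 2.55 for 786-M1A, 2.45 and 2.37 for OS-LM1). The 4 that fell in OS-LM1 cells, also named after their values were seen, were KLF8 (−1.68, edgeR adjusted p = 4e-12), TCF3 (−0.79, edgeR adjusted p = 9.8e-06) and TCF4 (−1.11, edgeR adjusted p = 0.0079), further repressors of CDH1, and GRHL1 (−1.76, edgeR adjusted p = 2.8e-06), of a family that activates it. TCF3 and TCF4 were not called in 786-M1A cells (−0.18 and −0.02, edgeR adjusted p = 0.32 and 0.89). SNAI2 was at 20.7 ± 0.909, 88.9 ± 15.7 and 31.9 ± 3.79 TPM in 786-M1A cells with sgNTC18, shPAX8-1 and shPAX8-2, and at 20.8 ± 2.15, 286 ± 37.7 and 140 ± 18.5 in OS-LM1 cells. It was higher with shPAX8-1 than shPAX8-2 in 786-M1A (1.48 ± 0.14, edgeR adjusted p = 2.9e-06) and OS-LM1 cells (0.96 ± 0.13, edgeR adjusted p = 2e-05). ZEB1 was higher by 0.75 ± 0.16 and 0.50 ± 0.10 (edgeR adjusted p = 0.0017 and 0.00099). Of the 8 tested in OS-LM1 cells, 3 were higher with shPAX8-1 than shPAX8-2, 1 was lower and 4 were not called. Over all genes there, 12.4% were higher and 16.7% lower. The 1 lower was TCF3 (−0.41, edgeR adjusted p = 0.044). SNAI1 (−0.48, edgeR adjusted p = 0.061) and KLF8 (−0.26, edgeR adjusted p = 0.11) were not called. These values, in both directions, stand beside the lower CDH1 with shPAX8-1 in OS-LM1 cells, and their part in it was not tested.

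Of 11 genes for cadherin processing and turnover, all were tested. Against sgNTC18, 4 rose and 5 fell in 786-M1A cells and 5 rose and 5 fell in OS-LM1 cells, where 70.4% and 73.4% of all genes were called. FURIN, a protease that can cut cadherin precursors, was at 48.3 ± 5.43, 7.88 ± 2.14 and 30.8 ± 0.845 TPM with sgNTC18, shPAX8-1 and shPAX8-2 in 786-M1A cells, and at 28.9 ± 3.32, 19.8 ± 3.20 and 37.2 ± 5.09 in OS-LM1 cells. It was lower with shPAX8-1 than shPAX8-2 in both (−1.98 ± 0.15 and −1.01 ± 0.11, edgeR adjusted p = 6.5e-07 and 1.1e-06). APH1A, a subunit of the gamma-secretase that cuts cadherin tails, was lower too (−1.37 ± 0.13 and −0.77 ± 0.09, edgeR adjusted p = 3.4e-06 and 1.9e-06).

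The labels were checked against marker genes. Of 12 renal epithelial and ccRCC markers, 9 or 10 reached a mean of 1 TPM in each group, and of 6 endothelial markers 0 did. EMX2 was at or near 0 in all groups and CA9 near 0 in 786-M1A cells. NDUFA4L2 was under 1 TPM in 786-M1A cells and with sgNTC18 in OS-LM1 cells, and EPCAM was under 1 TPM in OS-LM1 cells. Among 6 leukocyte markers CD3E was at 0 and PTPRC at most 0.36 TPM, while CD68 gave nearly all of the summed level. Of 6 fibroblast markers, 1 to 3 reached it in each group, among them LUM (group means up to 4.98 TPM) and COL3A1 (up to 4.65 TPM). The summed TPM of these 6 markers was 4.80 to 6.19 in OS-LM1 sgNTC18 libraries and 30.7 to 60.6 in the shPAX8 libraries of that line, mostly COL1A1, with COL1A2 at most 0.13 TPM in any library. In 786-M1A cells it was 183 to 232 with sgNTC18, 62.5 to 129 with shPAX8-1 and 204 to 275 with shPAX8-2, mostly PDGFRB. CDH11, a mesenchymal cadherin, was higher in the same OS-LM1 shPAX8 libraries, and the part of these genes in it was not tested. Among the 786-M1A shPAX8-1 libraries, replicates 1 and 2 and replicates 3 and 4 formed subsets (chi-square per gene 14.1 and 3.73 within, 44.7 to 77.4 across). Without replicates 1 and 2, CDH6 differed between the hairpins by 0.16 and CDH16 by −1.60, and without replicates 3 and 4 by 0.01 and −1.26. Pairs of OS-LM1 shPAX8-2 libraries differed by 16 to 89.5 per gene, the latter the highest of any pair. The counts of that group summed to between 14567945 and 52059375 per library.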

How the data were processed

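Poly(A) RNA of 24 libraries (2 lines, 3 constructs, 4 replicates) was sequenced. Per the labels a KAPA stranded kit was used, whereas the methods of the study name Lexogen kits. The authors mapped reads to hg38 with RSEM and bowtie2 (versions not given in the sources used here). They deposited an estimated count, TPM and FPKM for each of 26475 genes, where the expected count deposited by the authors is RSEM's estimate of the reads of a gene and is not normalized. The deposited TPM and FPKM use the full transcript length, since the effective length equals the length in every row. FPKM was not used. Coordinates are those of RefSeq on GRCh38.

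Expected counts were rounded, filtered with filterByExpr and scaled by TMM in edgeR 4.0.16 (R 4.3.3). Groups were compared with the robust quasi-likelihood test, in fits of the 12 libraries of a line or, for differences between lines, of all 24, with Benjamini-Hochberg adjustment over all genes and a threshold of 0.05. Log2 CPM used a prior count of 2. The SE is the absolute log2 fold change divided by the square root of the quasi-likelihood F statistic. It is approximate and may be too small for genes with few counts. Intervals are fold change ± t × SE. Exact permutation tests compared 4 with 4 libraries. The procedure was tested on simulated data.

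The members and gene lists were chosen with earlier results of these data known. Genes named are the 8 members, PAX8, the 5 closest in pattern to CDH6 and to CDH13 (average log2 CPM of at least 3, 1 of them not reported here), and from each list the 2 tested in both lines with the largest difference between hairpins, plus CTNNB1, CTNNA1 and CTNND1. AFDN and NECTIN1 to NECTIN4 were matched by RefSeq synonyms. Alternatives were DESeq2 1.42.0 and its size factors, no filter beyond 1 count, each library left out, the replicate number as a block, fitted GC trends taken out of the libraries with a spline of 5 degrees of freedom (about 90% of genes had a GC value), a fit of all 24 or of the 8 shPAX8 libraries, pairs of 786-M1A shPAX8-1 libraries left out, and a threshold of 0.01. No pair of replicates agreed within sampling noise (lowest chi-square per gene 3.73 over 36 pairs).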

Additional observations from a re-analysis of the deposited data

Results flagged for a closer look

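CDH13 changed in opposite directions against sgNTC18, higher in all 8 shPAX8 libraries of 786-M1A cells and lower in all 8 of OS-LM1 cells. The fitted difference between lines was −7.00 in log2 units (OS-LM1 less 786-M1A). This difference was not tested, because the choice of CDH13 used it. PAX8 differed between the hairpins unlike in the 2 lines, with an interaction of 1.16 ± 0.20 on the log2 scale (edgeR adjusted p = 0.00015).

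Single libraries stood apart from the other 3 of their group in 8 of 54 combinations of gene and group by Dixon's criterion, which flags about 1 in 20 by chance (2.7 here). The CDH1 level was 8.62 CPM in OS-LM1 shPAX8-1 replicate 2 against 5.38 to 5.92 in the others, and 0.0829 CPM in 786-M1A shPAX8-2 replicate 3 against 0.378 to 0.400. CDH11 was at 51.5 CPM in OS-LM1 shPAX8-2 replicate 1 against 57.3 to 58.4, and CDH16 at 0.758 CPM in OS-LM1 shPAX8-1 replicate 4 against 0.476 to 0.522. The other 4 were libraries with 1 to 3 counts in groups otherwise at 0, namely CDH3 in OS-LM1 shPAX8-1 replicate 4 (0.0379 CPM) and shPAX8-2 replicate 1 (0.0699 CPM), CDH4 in OS-LM1 sgNTC18 replicate 2 (0.0586 CPM) and CDH11 in 786-M1A sgNTC18 replicate 1 (0.123 CPM).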

How the results depend on the processing

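CDH16 in both lines and CDH1 in OS-LM1 cells kept their direction and call between the hairpins under every alternative run, with edgeR or DESeq2 adjusted p of at most 0.0274, 0.00165 and 0.00633. Of 1727 alternative values, 1602 were counted as the same. For members this meant the same direction and either the same side of the threshold or, against sgNTC18, a move smaller than the spread. For genes of the lists it meant the same side of the threshold, and a change of sign counted only where a value was called. Numbers of genes called were the same within a ratio of 1.5. The cause of the changes below was not tested.

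With the GC trend removed, with and without the replicate block, the difference of shPAX8-1 from shPAX8-2 in 786-M1A cells was −0.30 for CDH6 (called) and −0.04 for CDH13 (not called). The differences between lines were then 0.25 and 0.24 for CDH6, 0.02 for CDH2, and 1.12 and 1.14 for CDH13 (called). Over both hairpins against sgNTC18, without the block, CDH6 went from −2.89 to −3.17 in 786-M1A and from −2.81 to −3.15 in OS-LM1 cells. CDH16 went from −1.94 to −1.48 and from −2.53 to −2.09. In 786-M1A cells CDH13 went from 1.5 to 1.31, and in OS-LM1 cells CDH11 went from 2.58 to 2.33. CDH13 and CDH1 in OS-LM1 cells moved by less than the spread (to −5.76 and −0.29). Against sgNTC18 in OS-LM1 cells CDH24 became 0.39 and FURIN 0.38 (both called), and in 786-M1A cells CDH24 became 0.61 (called, from 0.05). CDH13 in 786-M1A cells lost its call with no filter beyond 1 count (0.20), in the fit of the 8 shPAX8 libraries (0.22), without replicates 1 and 2 (0.21) or 3 and 4 (0.23) of shPAX8-1, and at 0.01 (0.22). CDH2 in 786-M1A cells gained one with DESeq2, with the replicate block and in the fit of all 24 libraries (0.28 in each), and without replicates 1 and 2 of shPAX8-1 (0.36). In OS-LM1 cells CDH13 lost its call with DESeq2 (1.20), the replicate block (1.17), the GC trend removed with that block (1.12) and at 0.01 (1.16), and CDH11 with no filter (−0.29), in the fit of all 24 libraries (−0.30) and at 0.01 (−0.33). CDH6 there, near 0 throughout, was 0.01 with no filter and in the fit of all 24 libraries and 0.02 in that of the 8 shPAX8 libraries. The difference between lines for CDH16 was 0.10 without replicates 1 and 2 of 786-M1A shPAX8-1.

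With each library left out in turn, the difference between the hairpins ranged in 786-M1A cells from −0.01 to 0.18 for CDH6, 0.21 to 0.36 for CDH2 and 0.20 to 0.23 for CDH13, and in OS-LM1 cells from −0.06 to 0.06 for CDH6, −0.36 to −0.28 for CDH11 and 0.95 to 1.44 for CDH13. The difference between lines ranged from −0.18 to 0.01 for CDH6 and −0.29 to 0.15 for CDH16. Genes called between the hairpins in 786-M1A cells numbered 6803, 3869 without replicates 3 and 4 of shPAX8-1 and 4329 at 0.01. In OS-LM1 cells 4378 were called, and 2703 at 0.01. For the difference between lines there were 4264, 6817 without replicates 1 and 2 of 786-M1A shPAX8-1, 2579 without replicates 3 and 4, and 2449 at 0.01.

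Replicate numbers were not shown to pair libraries, though in 786-M1A cells hairpin libraries that share a number were on average more alike. There the residuals of libraries that share a number correlated at 0.038 to 0.27 (mean 0.169), against −0.363 to 0.309 (mean −0.057) for other numbers. In OS-LM1 cells they correlated at −0.171 to 0.123 (mean −0.069) and at −0.101 to 0.185 (mean 0.024). With the replicate block 6998 and 3642 genes were called, and among members the block changed the call of CDH2 in 786-M1A and CDH13 in OS-LM1 cells only. Depth limits CDH3, CDH4 and, in 786-M1A cells, CDH1 and CDH11.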
